A study of Mus musculus with 12 samples.

Results

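Respiratory complex I is described here through its nuclear-encoded subunit genes in mouse liver. The members were taken by name from the deposited count table: protein-coding genes called Ndufa, Ndufb, Ndufc, Ndufs or Ndufv followed by a number. The rule found 37 of the 56748 genes listed, and all 37 had enough counts to be among the 14003 genes tested. RNA was from bulk liver, and polyadenylated RNA was sequenced in 12 libraries, 3 biological replicates in each of 4 groups: wild type females, knockout females, wild type males and knockout males. Wild type mice were of the 129S1/SvImJ line, and knockout mice were of the 129/Sv-Cyp2e1tm1Gonz/J line, which carries a targeted allele of Cyp2e1, a cytochrome P450 that oxidises ethanol and other small molecules. All mice shared normal chow, co-housing and an age of 16 weeks. Because the allele sits in a line of its own, its effect and a difference between the lines cannot be told apart.

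Complex I, NADH:ubiquinone oxidoreductase, is the entry point of the mitochondrial respiratory chain: it takes electrons from NADH, passes them to ubiquinone and pumps protons across the inner membrane. Its peripheral arm holds the N module, where NADH is oxidised, and the Q module, where ubiquinone is reduced, and its membrane arm pumps protons. The core membrane subunits are encoded by mitochondrial DNA, while the other core subunits and all accessory subunits come from the nucleus. In liver the complex reoxidises NADH made by fatty acid oxidation and the citric acid cycle. Ndufa4 carries a complex I name from earlier work but is now placed in complex IV, and it is given apart below.

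Total counts per library ran from 15167730 to 25082532. Cyp2e1 stood at 6213 to 11480 CPM (counts scaled to a common library size) in the 6 wild type libraries and at 230 to 403 CPM in the 6 knockout libraries, which fits the genotype labels of all 12. Hepatocyte markers were high in every library (summed level of 8 genes 68737 to 110453 CPM). Libraries also differed in a length slope, which is the change of a library's log2 CPM, relative to the mean of all libraries, per doubling of the gene length in the table, taken over 8912 protein-coding genes without the members. It was negative in the 3 wild type female libraries (-0.16, -0.25 and -0.20) and positive in the 3 knockout female libraries (0.08, 0.30 and 0.19). Wild type males (-0.03, 0.12 and -0.17) and knockout males (0.09, -0.16 and 0.19) held slopes of both signs. Most complex I subunits are small proteins, and the female results for the members are also given below with length terms. Values with length terms are not given for the other genes named.

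In females, transcripts of most complex I subunits were lower in knockout than in wild type liver. Summed over the 37 members, the level was 5883, 6744 and 7102 CPM in wild type females and 3633, 2496 and 3031 CPM in knockout females, with no overlap. The members took 0.567% to 0.650% of all counts in wild type females and 0.288% to 0.386% in knockout females. In edgeR's quasi-likelihood test with Benjamini-Hochberg adjustment over all genes, 31 of the 37 members fell, 0 rose and 6 did not pass an adjusted p of 0.05, against 18.8% of all tested genes that fell. The median log2 fold change of the members was -1.18, with 0.05 over all tested genes, and the range was -2.00 for Ndufb4 to 0.01 for Ndufs1. For 33 of the 37 members every knockout female library was below every wild type female library, which held for 27.1% of all tested genes. In bulk tissue, fewer cells of a type and less RNA per cell cannot be told apart.

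The calls, more than the size of the differences, depended on particular female libraries. Without wild type female replicate 2, or without knockout female replicate 2, 0 members were called in edgeR, although 33 and 31 members then had an unadjusted p under 0.05. The members' median stayed near its value of -1.18, at -1.20 and -1.05. Over all fits without a single library, the median ran from -1.45, without knockout female replicate 1, to -1.05. The loss of calls was not particular to the members, since calls over all tested genes went from 5116 to 5 and 4. Leaving out any of the other 4 female libraries gave 24 to 31 calls. Wild type female replicate 2 had the lowest length slope of all 12 libraries and knockout female replicate 2 the highest. Knockout female replicate 2 was also the library with the lowest level of 34 of the 37 members among the 3 of its group.

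**Figure D1:**
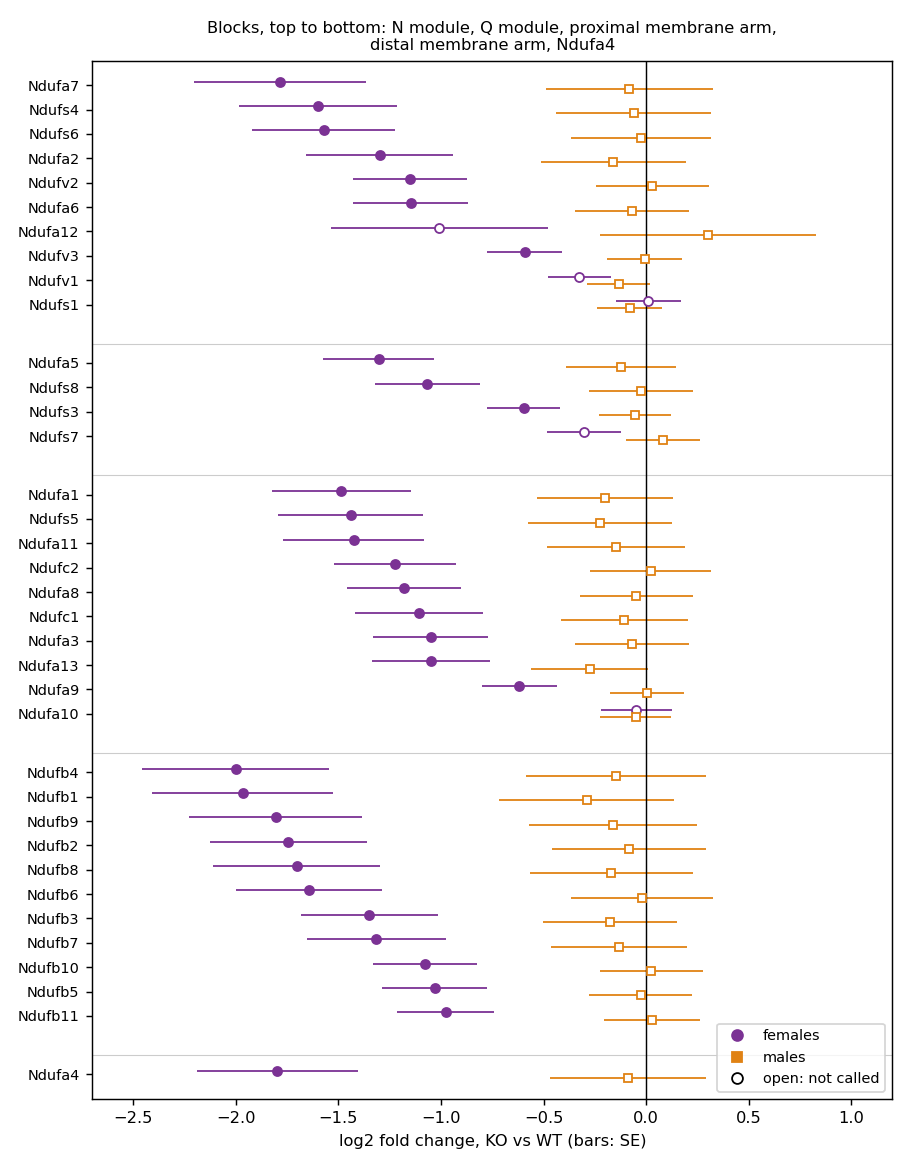
Log2 fold change of knockout against wild type (x axis) for 36 of the 37 members (y axis), in females (circles) and males (squares), with standard errors as bars and open symbols for values that did not pass the test. The female values run from -2.00 to 0.01 and 31 are filled, and the male values run from -0.29 to 0.30 and are all open.

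Promoter sequence is shown for 4 members that span the female range, from Ndufb4 (-2.00) through Ndufa11 (-1.43) and Ndufs3 (-0.60) to Ndufa10 (-0.05), so that the differences can be seen beside the sequence at the start of each gene. The sequences are the 120 bases before the annotated start, from RefSeq for the GRCm38.p6 assembly of the reference strain, not of the 129 lines, and that assembly differs from the mm39 build of the count table. Capitals mark exact matches, on either strand, to a short form of a known binding motif: CCGGAAG (ETS factors such as GABPA), CGCATGCG (NRF1), AAGATGGCG (YY1), GGGCGG (Sp and KLF factors) or AAGGTCA (estrogen-related receptors). In Ndufs3 an Sp/KLF match and an ETS match overlap.
Ndufb4, chr16:37654369-37654488, minus strand: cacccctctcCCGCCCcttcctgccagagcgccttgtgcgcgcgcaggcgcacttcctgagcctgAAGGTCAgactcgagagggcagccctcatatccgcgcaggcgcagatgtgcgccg
Ndufa11, chr17:56717642-56717761, plus strand: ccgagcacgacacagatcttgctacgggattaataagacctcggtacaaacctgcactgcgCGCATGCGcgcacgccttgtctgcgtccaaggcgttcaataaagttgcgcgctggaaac
Ndufs3, chr2:90904722-90904841, minus strand: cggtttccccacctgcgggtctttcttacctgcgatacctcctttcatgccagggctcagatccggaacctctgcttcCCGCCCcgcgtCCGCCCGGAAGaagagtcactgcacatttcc
Ndufa10, chr1:92473759-92473878, minus strand: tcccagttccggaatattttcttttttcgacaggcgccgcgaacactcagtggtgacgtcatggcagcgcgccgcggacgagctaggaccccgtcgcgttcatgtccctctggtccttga

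The printed stretch of Ndufb4 holds an Sp/KLF and an estrogen-related receptor match, that of Ndufa11 an NRF1 match, that of Ndufs3 a pair of Sp/KLF matches and an ETS match, and that of Ndufa10 none of these letters. Outside the printed bases, Ndufa10 has Sp/KLF matches at -147 and -128 from the start, and Ndufs3 an ETS match at 2. Windows from 250 bases before to 50 after the start were found for 33 of the 37 members. The YY1 letters occurred in 15.2% of the members and 1.64% of all 27025 genes with a window: Ndufa9, Ndufc1, Ndufs4, Ndufs6 and Ndufs7. The NRF1 letters occurred in 6.06% of members and 2.07% of all genes, the ETS letters in 12.1% and 9.93%, the Sp/KLF letters in 42.4% and 38.2%, and the estrogen-related receptor letters in 9.09% and 5.38%. In females the members with YY1 letters stood at -0.62 (Ndufa9), -1.11 (Ndufc1), -1.60 (Ndufs4), -1.57 (Ndufs6) and -0.30 (Ndufs7). A relation between the letters and the differences was not tested. A match is a description of the letters and not evidence of binding.

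The 7 nuclear core subunits, which carry the flavin, the iron-sulfur clusters or the quinone site, were split in females. Among them Ndufv2, Ndufs8 and Ndufs3 fell, and Ndufs1, Ndufv1 and Ndufs7 were among those that did not pass. Their coding sequences run from 636 to 2181 bases with a median of 789, while the 11 distal arm subunits have 312 to 567.

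Ndufv2, an iron-sulfur subunit of the N module (ENSMUSG00000024099, mm39 chr17:66385633-66408554), stood at 196, 231 and 219 CPM in wild type females and at 118, 74.1 and 98.7 CPM in knockout females. Its groups did not overlap, and the log2 fold change was -1.15 ± 0.28 (SE; edgeR adjusted p = 0.0143). Ndufs8, which holds a pair of iron-sulfur clusters in the Q module, showed a similar gap: 188, 200 and 179 CPM against 105, 72.9 and 92.8 CPM (-1.07 ± 0.26, edgeR adjusted p = 0.0143). For Ndufs3, a Q module subunit without a cofactor, levels were 187, 175 and 168 CPM in wild type and 134, 95.2 and 121 CPM in knockout females (-0.60 ± 0.18, edgeR adjusted p = 0.0219). All 3 of these fell without any overlap between the female groups.

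Smaller differences were found in other core subunits. Ndufs1, the largest subunit and the carrier of several iron-sulfur clusters in the N module, had 118, 96.7 and 96.9 CPM in wild type females and 91.4, 107 and 115 CPM in knockout females, groups that overlapped (0.01 ± 0.16, edgeR adjusted p = 0.966). It is the longest member (8086 bases of gene length, 2181 coding bases; mm39 chr1:63182755-63215992). Ndufv1, which binds the flavin and NADH, had 272, 235 and 220 CPM against 208, 176 and 196 CPM (-0.33 ± 0.15, edgeR adjusted p = 0.108). Its female libraries were separated by group although the test was not passed. Ndufs7, which holds the last iron-sulfur cluster before ubiquinone, overlapped between the groups, at 161, 141 and 146 CPM in wild type and 151, 98.1 and 113 CPM in knockout females (-0.30 ± 0.18, edgeR adjusted p = 0.197).

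**Figure D2:**
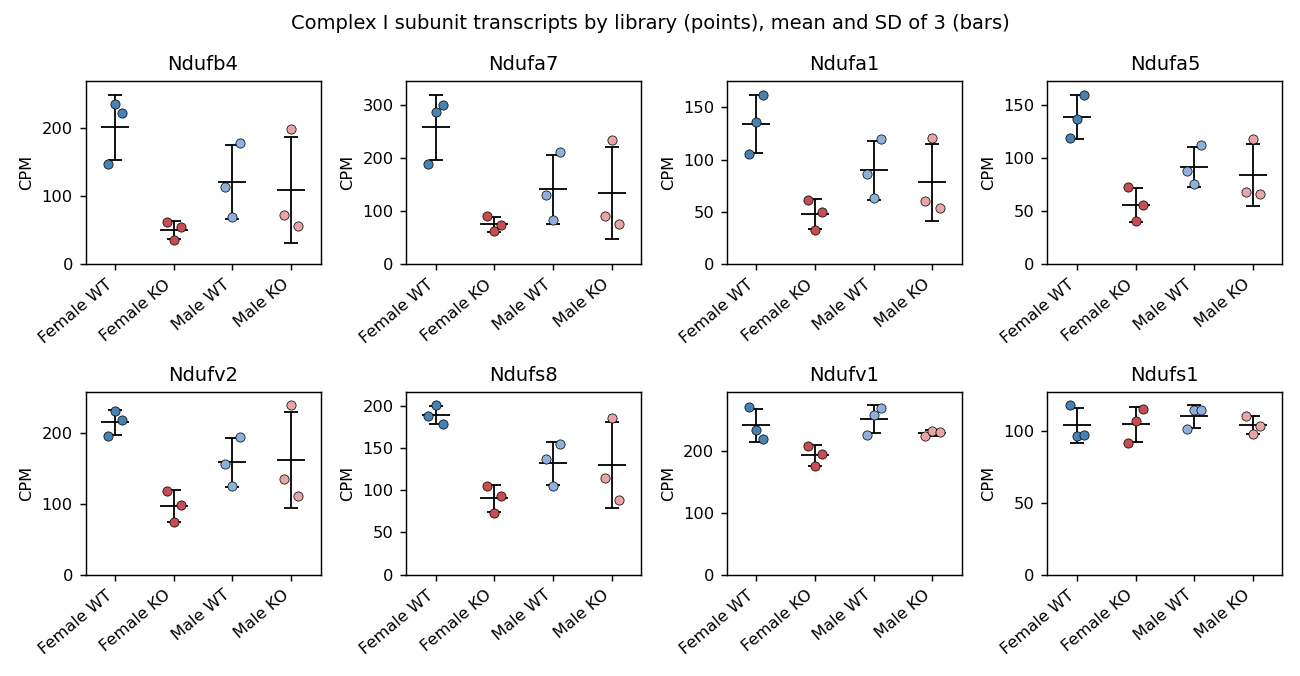
Level of 8 members in CPM (y axis, from 0) in the 12 libraries (points, coloured by group), with the mean and SD of the 3 libraries of each group as bars. Ndufb4, Ndufa7, Ndufa1, Ndufa5, Ndufv2, Ndufs8 and Ndufv1 are lower in all 3 knockout female libraries than in all 3 wild type female libraries, the Ndufs1 libraries overlap, and the male libraries of a group lie far apart for every gene shown but Ndufv1 and Ndufs1.

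In the N module as a whole, 7 of 10 members fell in females (median -1.15). The accessory subunit Ndufa7 showed the largest difference of the module. It had 188, 286 and 300 CPM in wild type females and 90.0, 61.5 and 73.2 CPM in knockout females, 29.0% of the wild type mean (-1.78 ± 0.42, edgeR adjusted p = 0.0142). Ndufs4, an accessory subunit whose loss in mice gives a model of Leigh syndrome, fell by 1.60 on the log2 scale, and Ndufs6, which contributes to assembly of the N module, fell by 1.57. Ndufa12 did not pass: it had 51.5, 18.9 and 34.4 CPM in wild type and 27.2, 17.7 and 7.37 CPM in knockout females (-1.01 ± 0.53, edgeR adjusted p = 0.145). Its groups overlapped. The ratio of its highest to its lowest library was the largest of the 37 members in every group but knockout males. The copy Ndufa12-ps had more counts than Ndufa12 in all 12 libraries, and Ndufs5-ps more than Ndufs5, so the split of reads between each gene and its copy is uncertain and both members' values with it.

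The Q module had 3 of 5 members lower in females (median -0.60), and Ndufa5, its accessory subunit, had the largest difference. Ndufa5 stood at 119, 137 and 160 CPM in wild type and at 72.2, 40.1 and 55.8 CPM in knockout females (-1.30 ± 0.27, edgeR adjusted p = 0.0139), with no overlap. Its adjusted p was the smallest of the 37 members in females.

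Of the proximal membrane arm, which joins the peripheral arm and carries accessory subunits around the mitochondrially encoded core, 9 of 10 members fell in females (median -1.14). Ndufa1, a single-pass membrane subunit needed for assembly and the shortest member (419 bases of gene length, 210 coding bases; mm39 chrX:36451241-36454816), had 106, 136 and 161 CPM in wild type and 61.6, 32.9 and 49.4 CPM in knockout females (-1.49 ± 0.34, edgeR adjusted p = 0.0140). Ndufa10, an accessory subunit on the matrix side, was the exception. It had 174, 126 and 127 CPM in wild type and 138, 125 and 150 CPM in knockout females, and these overlapped (-0.05 ± 0.17, edgeR adjusted p = 0.842). Its coding length of 1065 bases is well above the module's median of 394.5. Ndufa9 is longer still, at 1131 coding bases, and it fell (-0.62 ± 0.18, edgeR adjusted p = 0.0219). The part of length in this exception was not tested.

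All 11 members of the distal membrane arm, the Ndufb subunits at the proton-pumping tip, fell in females (median -1.64, range -2.00 to -0.98). Ndufb4 (ENSMUSG00000022820, mm39 chr16:37467532-37474815), whose promoter is the first of those printed, had 147, 236 and 222 CPM in wild type females and 61.3, 35.8 and 53.9 CPM in knockout females. The knockout mean was 25% of the wild type mean (-2.00 ± 0.46, edgeR adjusted p = 0.0140). Ndufb1, a small single-pass subunit, was close to it with 51.5, 83.5 and 96.9 CPM against 25.9, 15.5 and 17.9 CPM (-1.97 ± 0.44, edgeR adjusted p = 0.0140). Even the smallest difference of the arm, that of the X-linked Ndufb11, kept the female groups apart: 247, 265 and 288 CPM against 160, 111 and 136 CPM (-0.98 ± 0.24, edgeR adjusted p = 0.0143).

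Per kilobase of transcript, Ndufa4 had the highest level of the 36 members with a transcript length and Ndufb2 the lowest. Ndufa4, now counted as a subunit of cytochrome c oxidase, had 552, 739 and 869 CPM in wild type females and 256, 163 and 202 CPM in knockout females (-1.80 ± 0.39, edgeR adjusted p = 0.0140). Its level per kilobase of transcript was 1180 ± 262 (SD, n = 3) CPM in wild type females and 339 ± 77.1 CPM in knockout females. Ndufb2, a distal arm subunit, stood at 3.60 ± 0.963 CPM per kilobase (SD, n = 3) in wild type females, with 4371 bases of transcript but 315 coding bases assigned to it. Its counts gave 12.4, 14.3 and 20.5 CPM in wild type and 5.69, 4.45 and 3.92 CPM in knockout females (-1.75 ± 0.38, edgeR adjusted p = 0.0140). The highest and the lowest member by this measure had like fold changes in females. This rests on the long transcript of Ndufb2. Per kilobase of coding sequence Ndufs1 was lowest in wild type females, at 47.6 CPM against 49.9 CPM for Ndufb2. The female log2 fold change of Ndufs1 was 0.01.

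In males no member passed the test. In edgeR 0 of 37 members were called and 0 had an unadjusted p under 0.05, DESeq2 also called 0, and 0.0571% of all tested genes were called. The median log2 fold change was -0.07, with -0.0028 over all tested genes, and the range was -0.29 for Ndufb1 to 0.30 for Ndufa12. All 37 members overlapped between the male groups. For 0 members was every knockout male library below every wild type male library, against 4.52% of all tested genes. This is not a sign that levels were alike in males, because libraries of the same male group differed widely.

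Ndufb4 had 114, 69.9 and 178 CPM in wild type males and 72.0, 199 and 55.7 CPM in knockout males (-0.15 ± 0.44, edgeR adjusted p = 1). Its highest knockout male library was 3.58 times its lowest, while the female group means differed 4.00-fold. Ndufa7 (130, 82.2 and 210 CPM against 91.4, 233 and 75.2 CPM) and Ndufa4 (461, 293 and 617 CPM against 310, 739 and 242 CPM) showed the same order of libraries. Ndufv2 followed it too, with 156, 126 and 194 CPM in wild type and 136, 240 and 112 CPM in knockout males (0.03 ± 0.27, edgeR adjusted p = 1). Ndufa12, the largest male difference, had 10.7, 18.7 and 32.1 CPM in wild type and 26.2, 37.5 and 12.2 CPM in knockout males (0.30 ± 0.53, edgeR adjusted p = 1).

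A single male library of each genotype held most of the high values. Wild type male replicate 3 had the highest level of its group for 34 of the 37 members, and knockout male replicate 2 for 35. Without knockout male replicate 2, the median of the members in males moved from -0.07 to -0.48, and 14 members then had an unadjusted p under 0.05, though edgeR still called 0. A pair of long core subunits spread far less: Ndufs1 had 101, 115 and 114 CPM in wild type and 111, 97.9 and 104 CPM in knockout males, and Ndufv1 had 227, 258 and 271 CPM against 224, 233 and 231 CPM. Over the 37 members, the ratio of the highest to the lowest knockout male library had a median of 2.15 and ran from 1.04 to 3.58. Such within-group ratios exceeded the ratio of the female group means for 8 members in knockout males, 3 in wild type males, 4 in knockout females and 3 in wild type females.

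The order of the libraries in the members' level went with the length slope in both sexes. The 5 libraries with the lowest slopes, all 3 of wild type females, wild type male replicate 3 and knockout male replicate 2, were the 5 with the highest member levels: the median deviation of the members from their mean over 12 libraries was 0.42 to 0.74 on the log2 scale there. Knockout female replicate 2 had the highest slope (0.30) and the lowest members (-1.01). Knockout male replicate 3, with a slope of 0.19, stood at -0.42, and knockout female replicate 3, with a slope of 0.19, at -0.67. Within knockout females and within each male group, the order of the 3 libraries in the members was the reverse of their order in slope, and in wild type females it was not. Both measures come from the same 12 libraries, although the members were left out of the slope.

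**Figure D3:**
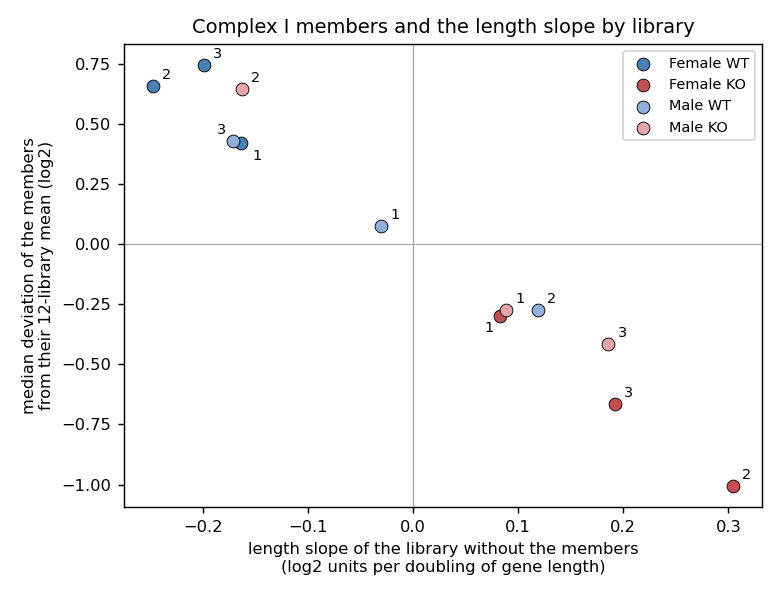
Median log2 deviation of the 37 members from their mean over 12 libraries (y axis) against the length slope of each library computed without the members (x axis, log2 units per doubling of gene length), with points coloured by group and numbered by replicate. The 5 libraries of lowest slope sit at 0.42 to 0.74 and the library of highest slope, from a knockout female, at -1.01.

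Across the members, the female difference moved with coding length. The log2 fold change in females and the log2 coding length had Pearson's r of 0.76 and Spearman's rho of 0.64 over 36 members, and 0.60 and 0.60 over 8893 other protein-coding genes, given as a description across genes that share the same libraries. With the table's own gene length, r was 0.38 over the members. In males r with coding length was 0.23 over members and 0.30 over other genes. Coding and transcript lengths were those of the principal transcript in GENCODE vM21, since the gene length in the table often exceeds the main transcript (4522 against 623 bases for Ndufb7).

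Other short genes were lower in knockout females as well. Among genes of up to 500 coding bases, 19 of 20 members and 55.8% of 1050 other protein-coding genes fell, with medians of -1.33 and -0.90. Over 500 and up to 750 coding bases, 8 of 9 members and 38.8% of 1403 others fell, with medians of -1.15 and -0.48. Over 1000 and up to 1500 coding bases it was 2 of 5 members and 16.3% of 2838 others, and Ndufs1 was the only member above that, where 4.55% of 5424 others fell. In each of these bands the members' median was below that of the other genes, and it was higher in the longer bands for both.

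**Figure D4:**
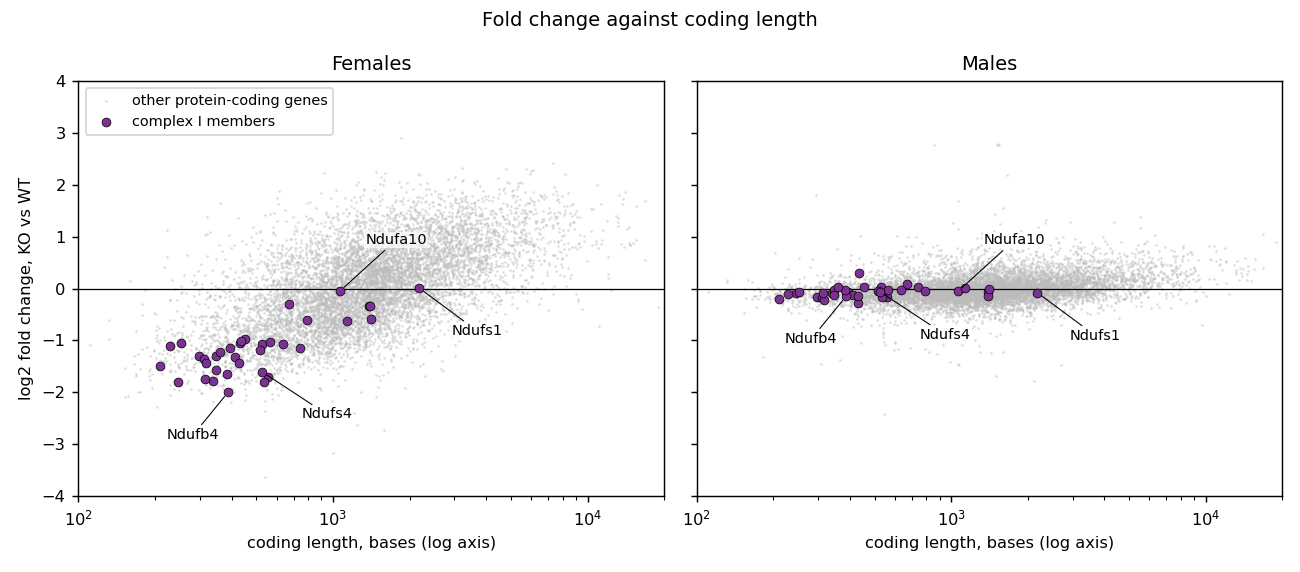
Log2 fold change of knockout against wild type (y axis) against coding length in bases (log x axis) in females and males, with members as large points and other protein-coding genes with mean log2 CPM above 2 as small points. Short genes lie below 0 in females, where the 36 members with a coding length run from Ndufb4 at -2.00 to Ndufs1 at 0.01, and the members lie near 0 in males.

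Removing the length trend reduced the median female difference of the members, by an amount that depended on the measure of length. The trend was a spline of each library's deviation on log2 length, fitted without the members and taken as an offset in edgeR. With gene length 21 members fell (median -0.55, against 16.9% of all tested genes that fell), with coding length 26 fell (median -0.55, against 17.2%) and with transcript length 15 fell and 1, Ndufs7, rose (median -0.38, against 17.3%). The transcript and coding length fits were chosen after seeing the data, and Ndufb1 has neither length, so its value there carries no correction. Under all 3 trends 12 members fell: Ndufa4, Ndufa5, Ndufa7, Ndufb1, Ndufb2, Ndufb4, Ndufb6, Ndufb8, Ndufb9, Ndufs4, Ndufs6 and Ndufv2. Under none did 8: Ndufa2, Ndufa3, Ndufa10, Ndufa12, Ndufb11, Ndufs1, Ndufs3 and Ndufs7.

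The 3 corrections kept Ndufb4 lower throughout, at -1.63 ± 0.37 for gene length, -1.28 ± 0.29 for transcript length and -1.29 ± 0.29 for coding length (edgeR adjusted p = 0.015, 0.015 and 0.014). Ndufb11, at -0.98 without correction, was at -0.13, -0.21 and -0.35 and passed in none. Ndufs7, at -0.30 without correction, was at 0.14, 0.57 and 0.07, and passed with transcript length only (edgeR adjusted p = 0.045). Some members moved down instead. With gene length Ndufb2 went from -1.75 to -2.01, and Ndufs1 from 0.01 to -0.41, which did not pass. With coding length Ndufv1 went from -0.33 to -0.45 and passed (edgeR adjusted p = 0.0389). The distal arm held the most calls, with 9, 7 and 10 of 11 members lower in gene, transcript and coding length, and the proximal arm had 3, 2 and 6 of 10. The core subunits had 2, 1 and 4 of 7 lower.

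With the length slope of each library as a covariate in the model, no member was called. In edgeR 0 of 37 were called and 0 had an unadjusted p under 0.05, against 0.0643% of all tested genes called, and the median of the members was -0.10. Ndufb4 was at -0.07 ± 0.23, Ndufs4 at -0.01 ± 0.22 and Ndufv2 at -0.05 ± 0.17 in that fit. The median standard error of the members was 0.21, against 0.30 without the covariate, although the errors of some members were wider with it. The female groups did not overlap in the slope, so in females the slope and the group cannot be told apart. The relation between slope and level is taken in this fit from the differences among libraries of the same group.

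**Figure D5:**
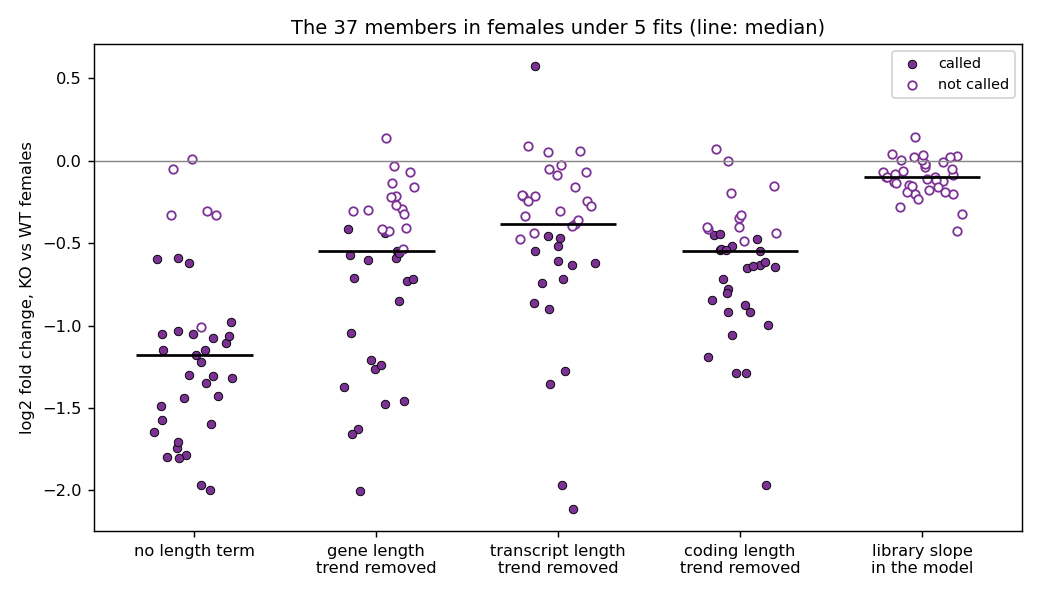
Log2 fold change of the 37 members in knockout against wild type females (y axis) in 5 fits (x axis): without a length term, with the trend on gene, transcript or coding length removed, and with the library slope in the model. Filled points passed the test and lines are medians, which are -1.18, -0.55, -0.38, -0.55 and -0.10 from left to right.

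Averaged over the sexes, 15 members fell and 0 rose, against 7.29% of all tested genes that fell, and the median was -0.61. Ndufb1 had the largest value (-1.13 ± 0.30, edgeR adjusted p = 0.0380). No core subunit passed. This count was unsteady: it was 0 or 1 without any single one of 10 of the 12 libraries, and 28 and 31 without wild type male replicate 2 and knockout male replicate 2. Calls over all genes moved alike, from 2111 to between 18 and 676 in those 10 fits and to 4510 and 5594 in the other two. The members' median was -0.83 to -0.52 over the 12 fits. DESeq2 called 29.

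The difference of the knockout effect between males and females was not called for any member. In edgeR 0% of tested genes passed, and 30 of the 37 members and 3145 of all genes had an unadjusted p under 0.05. DESeq2 called 0 members and 83 genes. The median of the male minus the female effect was 1.17 over the members and -0.03 over all tested genes. Ndufb4 was highest at 1.85 ± 0.63 (edgeR adjusted p = 0.204, the lowest that any member reached). The sexes were therefore not shown to differ, although 31 members passed in females and 0 in males.

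Between the sexes within a genotype, 0 members were called in edgeR. In wild type mice the members' median was -0.51 in males against females, 4.49% of all tested genes were called, and 1 member had an unadjusted p under 0.05. For 12 members every wild type male library was below every wild type female library, against 13.5% of all tested genes. In knockout mice the median was 0.65, with 5.40% of all tested genes called and 21 members at an unadjusted p under 0.05. There 9 members had every male library above every female library, against 14% of all tested genes. The summed level of the members was 4728, 3948 and 6107 CPM in wild type males and 3838, 6751 and 3463 CPM in knockout males. Both male means (4927 and 4684 CPM) lay between those of wild type and knockout females (6576 and 3053 CPM). DESeq2 called 0 members in wild type and 2 in knockout mice.

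None of the mitochondrially encoded subunits of complex I, which form the core of the membrane arm, passed the test. In females 0 of 7 were called in edgeR and 1 had an unadjusted p under 0.05, with a median of -0.10, and the difference from the nuclear subunits was not tested. The closest was mt-Nd3, with 4.39, 4.27 and 14.7 CPM in wild type and 6.27, 1.76 and 2.24 CPM in knockout females (-1.18 ± 0.53, edgeR adjusted p = 0.0939). mt-Nd4, a proton-pumping subunit, had 1989, 2612 and 6633 CPM in wild type and 5031, 2724 and 2480 CPM in knockout females (-0.13 ± 0.39, edgeR adjusted p = 0.802). These transcripts varied widely within groups, and wild type female replicate 3 was the highest library for mt-Nd4. In males 0 of 7 passed as well.

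Assembly factors, the proteins that build complex I without staying in it, were mostly lower too: 12 of 19 tested fell in females and 0 rose (median -0.81), against 18.8% and 17.7% of all tested genes, and 0 passed in males. Ndufaf4 stood at 58.4, 57.1 and 58.3 CPM in wild type and 21.9, 19.3 and 21.2 CPM in knockout females (-1.48 ± 0.22, edgeR adjusted p = 0.0100). Ndufaf6 had 36.4, 46.3 and 47.9 CPM against 13.6, 12.0 and 12.8 CPM (-1.76 ± 0.34, edgeR adjusted p = 0.0139), and Ndufaf2 and Tmem70 fell by 1.67 and 1.13 on the log2 scale. Both were lower in all 3 knockout female libraries, and the libraries of Ndufaf4 lay close together within each female group. Acad9, an assembly factor that also resembles an acyl-CoA dehydrogenase and has 1875 coding bases, did not pass (-0.22 ± 0.18, edgeR adjusted p = 0.355). Shorter factors that did not pass included Ndufaf8 (222 coding bases, -0.81 ± 0.31, edgeR adjusted p = 0.0543) and Ndufaf3 (555 coding bases, -0.31 ± 0.21, edgeR adjusted p = 0.250). Tmem186, with 648 coding bases, was another (0.08 ± 0.16, edgeR adjusted p = 0.715). The part of length in these values was not tested.

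Of 7 further tested genes with an Nduf name outside the rule and the assembly factors, 6 fell in females and 0 passed in males. The 6 were Ndufab1 and all 5 processed pseudogenes: Ndufa12-ps, Ndufab1-ps, Ndufb4c, Ndufs5-ps and Ndufs6b. Ndufab1, the mitochondrial acyl carrier protein that is also a complex I subunit, had 113, 120 and 129 CPM in wild type and 71.0, 51.5 and 62.1 CPM in knockout females (-0.97 ± 0.24, edgeR adjusted p = 0.0147). Ndufb4c fell by 2.17 on the log2 scale from levels of 4.44 to 6.06 CPM. Ndufa4l2, an Ndufa4 paralog, stood at 1.72 to 2.93 CPM in wild type and 2.20 to 4.18 CPM in knockout females (0.46 ± 0.32, edgeR adjusted p = 0.264).

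Among 11 regulators of nuclear genes for mitochondrial proteins or of mitochondrial DNA, 3 rose and 2 fell in females, and 0 passed in males. At 17.7% and 18.8% of all tested genes that rose and fell, these small counts are near the background. Ppargc1b, a coactivator of mitochondrial biogenesis, was listed at 0.803, 0.893 and 1.42 CPM in wild type and 5.29, 7.64 and 7.30 CPM in knockout females (2.71 ± 0.53, edgeR adjusted p = 0.0139). Polrmt, the mitochondrial RNA polymerase, and Ppargc1a also rose, by 0.98 and 0.69. Esrra, the nuclear receptor whose response element is among the motifs above, fell by 0.69 and Tfam, which packages mitochondrial DNA, by 0.67. The risers have coding lengths of 2391 to 3621 bases, and Esrra and Tfam 1266 and 729 bases. The 6 regulators that did not pass have 1146 to 4932 coding bases. The part of length in these differences was not tested.

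Markers of other cells are given for the female groups, where 17.7% of all tested genes rose and 18.8% fell. The summed level of 10 Kupffer cell markers was 177 to 253 CPM in wild type and 223 to 301 CPM in knockout females, and 3 of 10 rose. That of 8 sinusoidal endothelial markers was 157 to 185 CPM and 213 to 286 CPM, and 4 of 8 rose. Muscle genes appeared in knockout females: Acta1, Myh1 and Ckm were at 0 in the other 3 groups, and the summed level of 10 adipose, pancreas and muscle markers reached 72.7 CPM in knockout female replicate 2, against 2.16 to 11.6 CPM in the other female libraries. Summed hepatocyte markers overlapped, at 81655 to 110453 CPM in wild type and 97327 to 98486 CPM in knockout females, and 2 of 8 rose and 1 fell. Of the other lists, 2 of 10 stellate cell and 2 of 6 cholangiocyte markers rose and as many fell, 2 of 5 lymphocyte and neutrophil markers rose, and 0 of 5 erythroid markers passed. The part of these cells in the complex I results was not tested.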

How the data were processed

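The authors deposited a table of raw counts per gene for 12 liver libraries, described per the labels' protocols as poly(A)-selected RNA primed with random hexamers. Per the submitters' processing notes, HISAT2 2.0.5, DESeq2 and mm39 were used, with no role given; how the reads were counted (annotation, strand setting) was not given in the sources used here, so reads of overlapping genes may be shared. Genes were kept by filterByExpr (14003 of 56748, with 99.9% of counts). The biological coefficient of variation was 25.9%. Chi-square between replicate libraries was 16.1 to 150.0 per degree of freedom, above sampling noise.

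Tests used edgeR 4.0.16 in R 4.3.3: TMM, 1 mean per group over all 12 libraries (8 residual and 5.22 prior degrees of freedom), quasi-likelihood F tests, and Benjamini-Hochberg adjustment over all tested genes within a contrast. Standard errors come from the F statistic and are approximate. Log2 CPM used a prior count of 2. The length slope used genes with mean log2 CPM above 2, and trends were splines with 5 degrees of freedom. Alternatives were RLE size factors, DESeq2 1.42.0, no filter, each library left out, a replicate block and the length terms. Code was tested on simulated data, in which length slopes were absent or overlapped between the female groups and stayed below the largest found here. The fit with the slope as a covariate was not among those simulated. Values in every library are given for core subunits (1 member is not reported here by itself), for the largest and smallest female change of each module, for the largest change in other contrasts, and for the extremes of length and of level. In related lists up to 4 genes of smallest adjusted p were named (Acad9, Ndufaf3, Ndufaf8, Tmem186, Ppargc1a and mt-Nd4 were chosen after their values were seen). The members and lists were chosen with earlier results of these data known. Libraries of the same replicate number in different groups did not deviate together (3 of 18 correlations over 0.1, range -0.61 to 0.28), so the numbers were not taken as pairs.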

Additional observations from a re-analysis of the deposited data

How the results depend on the processing

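In females the count of members called was 29 to 33 with RLE size factors, DESeq2, no filter or the replicate block, against 31. It was 15 with the block and the gene-length trend removed, 16 in either direction with the transcript-length trend removed, and 0 with the slope in the model. The female median, -1.18, was -0.55 with the gene-length trend removed (-0.56 with the block), -0.55 with the coding-length trend, -0.38 with the transcript-length trend and -0.10 with the slope. Leaving out 1 library gave 0 to 31 calls in females, 0 to 31 for the mean of sexes, 0 to 3 for knockout males against females, a male median of -0.48 to 0.12 and a median sex difference of the effect of 0.72 to 1.38. The mean of sexes had 15 calls, but 29 with DESeq2, 28 without the filter, 0 with the replicate block, with or without the gene-length trend, 6, 4 and 4 with the gene-, transcript- and coding-length trends, and 0 with the slope. Its median was -0.19 with the transcript-length trend and -0.0163 with the slope. The sex difference of the effect had 24 calls without the filter, and its median, 1.17, was 0.49 with the gene-length trend (with or without the block), 0.35 with transcript length, 0.58 with coding length and 0.15 with the slope. For wild type males against females there was 1 call without the filter, and the median was -0.11 with transcript length and 0.037 with the slope. For knockout males against females there were 2 calls in DESeq2 and 15 without the filter, and the median was 0.25 with transcript length and 0.17 with the slope. In females the sign differed from that without a length term for 2 of the 37 members with gene length, 5 with transcript length, 3 with coding length and 9 with the slope. Of these 0, 2, 0 and 6 had been called: Ndufa3 (0.092) and Ndufs3 (0.061) with transcript length, and Ndufa2 (0.146), Ndufa13, Ndufb7, Ndufb8, Ndufc1 and Ndufs5 (0.002 to 0.04) with the slope. Ndufs7, not called before, was called at 0.57 with transcript length. In the mean of sexes Ndufa7 was at 0.044 with the slope. The slope of wild type female replicate 3 was -0.29 over genes of up to 5000 bases. The cause of these shifts was not tested, except that each length fit was built to remove a length trend. In males 0 members were called under all alternatives run. The replicate numbers were not taken as pairs, and the labels do not say how they were given. Ndufa12, Ndufb2 and Ndufs5 have the fewest counts of the members, and so the largest relative counting error; its part in their spread was not tested.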
